A study of Caenorhabditis elegans with 83 samples.

Results

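The 433 protein-coding genes described here lie on chromosome III of C. elegans with their midpoints between 7377000 and 9377000 (WBcel235), that is, within about 1 Mb of met-2 (III:8375300-8380848), and met-2 itself was left out. They were chosen by position alone, from 19985 annotated protein-coding genes. The study sequenced small RNAs of whole day 1 adults grown at 20 degrees, in 83 libraries that form 28 groups, of which 27 held 3 libraries and 1 (SX1263 wild type, P0, anti-GFP) held 2. In the SX1263 reporter strain, libraries of met-2(n4256), of the met-2(n4256);set-25(n5021) double mutant, of set-25(n5021) and of wild type were made at P0 and F3, and libraries of met-2(n4256) and of wild type also at F15. In the EG6089 reporter strain, the double mutant and wild type were sequenced at P0 and F3. Each of these came as animals fed bacteria with dsRNA against GFP (or their descendants) and as control animals on the empty vector (or their descendants). Descendants ate OP-50, so P0 and later generations also differed in food. All groups carry a GFP reporter, each mutant genotype is represented by 1 allele of each gene, and whatever else differs between a mutant line and its wild type cannot be told apart from the mutation.

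MET-2 is the worm's SETDB1-like methyltransferase that places mono- and dimethyl marks on lysine 9 of histone H3, and SET-25 is a methyltransferase known for the trimethyl mark on the same residue. Most gene-directed small RNAs of the adult germline are 22G RNAs, which RNA-dependent RNA polymerases make antisense to a transcript and which Argonaute proteins then use to silence or to protect that gene. When a mutation is crossed from strain to strain, genes close to it on the chromosome tend to travel with it, while genes far away are more often exchanged. Genes linked to met-2 are therefore where sequence differences brought along with the met-2 allele would most likely be found. Such differences would be in the met-2 and double mutants and not in set-25, whose gene lies 4.91 Mb away on the same chromosome (III:13283824-13293090).

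Counts were raw reads assigned to genes. SX1263 libraries held 3583283 to 18225929 such reads (median 7469120) and EG6089 libraries 2134929 to 6102965 (median 3660163). Levels below are CPM, that is, counts scaled to the same total of assigned reads per library, changes are log2 values of mutant over wild type, and a gene is called when the adjusted p of edgeR's quasi-likelihood test over all genes is under 0.05. The strand and read length used in counting are not given in the sources used here, so sense and antisense small RNAs cannot be told apart, and 161 of the 433 genes share exon bases with another gene. In these whole animals, fewer cells of a type and less small RNA per cell cannot be told apart.

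Small RNAs of met-2 itself separated the groups labelled with the met-2 allele from the others, which checks neither the set-25 label nor met-2 against the double mutant. In control libraries at F3 its level was 105, 110 and 97.0 CPM in met-2, 89.4, 79.1 and 96.3 CPM in the SX1263 double mutant and 407, 360 and 337 CPM in set-25, against 384, 323 and 352 CPM in wild type. In EG6089 it was 95.0, 95.1 and 85.1 CPM in the double mutant, against 356, 355 and 357 CPM in wild type. All groups that carry the met-2 allele lay below all wild-type and set-25 libraries, with changes from wild type of -1.76 in met-2, -2.0 in the SX1263 double mutant and -1.96 in the EG6089 double mutant. Small RNAs of set-25 itself were lower at F3 in every SX1263 mutant library than in every wild-type library. They were 200, 222 and 194 CPM in met-2, 105, 143 and 126 CPM in the SX1263 double mutant and 180, 202 and 177 CPM in set-25, against 287, 281 and 265 CPM in wild type. The change was -0.43 ± 0.15 in met-2 (adjusted p = 0.042, a call lost in 5 of 6 fits that left out 1 library), -1.16 ± 0.16 in the double mutant (adjusted p = 2e-05) and -0.57 ± 0.15 in set-25 (adjusted p = 0.086), so the set-25 group was not set apart from met-2 by its own gene.

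Genes linked to met-2 carried more small RNA than genes elsewhere in the autosome centres, the middle 50% of each autosome. That rest includes genes in the centre of chromosome III outside the region, which may also have travelled with met-2. Of the 433 genes, 425 had a row in the SX1263 counts and 420 in the EG6089 counts. Their median level in SX1263 wild-type controls at F3 was 12.2 CPM, against 1.22 CPM for the 9019 counted genes in the rest of the centres, although the median exon lengths were close, at 1222 and 1201 nt. In EG6089 wild type the medians were 8.54 and 1.07 CPM. Because the test needs enough reads, 334, 315 and 308 of the 433 genes were tested in SX1263 at P0, F3 and F15, and 260 and 262 in EG6089 at P0 and F3. Counts below are over these tested genes only.

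In met-2 mutants, 22.5% to 31.5% of linked genes were called over the 3 generations, and more were higher than lower. At F3, 71 of 315 linked genes (22.5%) were called in met-2 against wild type, 60 higher and 11 lower, while 26.1% of the rest of the autosome centres and 28.1% of all tested genes were called (17.9% higher and 10.3% lower). At P0, 75 of 334 linked genes (22.5%) were called, 57 higher and 18 lower, against 21.5% of the rest of the centres and 23.5% of all tested genes (13.5% higher and 9.93% lower). Rises also outnumbered falls in the rest of the centres in each generation. At P0, 16.9% were higher there and 4.63% lower, against 17.1% and 5.39% of linked genes. The rest of the centres had 21.5% higher and 4.54% lower at F3, and 22.99% and 10.2% at F15. At F15, 97 of 308 (31.5%) were called, 64 higher and 33 lower, against 33.2% of the rest and 36.5% of all tested genes (19.1% higher and 17.4% lower). The F15 count was 63 without wild-type F15 control replicate 1. With the compared libraries fitted alone, 42 linked genes were called at P0 and 64 at F15.

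In the double mutant more linked genes fell than rose. Falls also outnumbered rises in the rest of the centres in SX1263 at F3 (15.9% higher and 18.3% lower) and P0 (8.51% and 12.7%). The same held there in EG6089 at P0 (20.1% and 27.2%), but not in EG6089 at F3 (25.6% and 24.9%). In SX1263 at F3, 101 of 315 linked genes (32.1%) were called, 37 higher and 64 lower, against 34.2% of the rest of the centres and 38.3% of all tested genes (18.6% higher and 19.7% lower). At P0, 76 of 334 (22.8%) were called, 26 higher and 50 lower, against 21.2% of the rest and 25.3% of all tested genes (11.2% higher and 14.1% lower). Same-numbered libraries deviated together in that comparison, and with the replicate number as a block 129 linked genes (38.6%) were called, against 35.8% of the rest. The unblocked P0 count was 50 without wild-type P0 control replicate 2, 47 without double mutant P0 control replicate 3, and 50 with the compared libraries fitted alone. In EG6089 the double mutant had 136 of 262 linked genes (51.9%) called at F3, 62 higher and 74 lower, against 50.6% of the rest and 50.9% of all tested genes (23.7% higher and 27.1% lower). At P0 in EG6089 it was 126 of 260 (48.5%), 46 higher and 80 lower, against 47.2% of the rest and 45.9% of all tested genes (18.5% higher and 27.4% lower). That split of higher and lower calls rested on the scaling: with size factors in place of TMM, 62 were higher and 62 lower, and the median change of the tested genes moved by 0.16 log2.

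The set-25 mutant left nearly all linked genes below the threshold. At P0, 2 of 334 linked genes (0.599%) were called, both higher, against 0.617% of the rest of the centres and 0.956% of all tested genes (0.379% higher and 0.577% lower), and 17 linked genes had an unadjusted p under 0.05. At F3, 1 of 315 (0.317%) was called, also higher, against 0.908% of the rest and 1.11% of all tested genes (0.498% higher and 0.612% lower), and 15 had an unadjusted p under 0.05. DESeq2 called 4 linked genes at F3, and 8 were called when the set-25 and wild-type libraries were fitted alone. Same-numbered libraries deviated together at P0, and with the replicate number as a block 3 linked genes (0.898%) were called there, against 1.25% of the rest.

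Over the 9 control comparisons with wild type, the share of linked genes called differed from the share in the rest of the centres by -3.55 to 1.57 percentage points, lower among linked genes in 5 comparisons and higher in 4. With a 2-fold minimum added to the call, the share was lower among linked genes in all 9, with differences of -6.41 to -0.24 percentage points. In the SX1263 double mutant 30 linked genes passed both limits at F3 (9.52%), against 15.9% of the rest and 21.7% of all tested genes, and 27 at P0 (8.08%), against 9.76% and 15.3%. In the EG6089 double mutant 62 passed at F3 (23.7%), against 25.4% and 27.5%, and 73 at P0 (28.1%), against 32.1% and 32.2%. The median absolute log2 change of linked genes was below that of the rest in all 9 control comparisons, with medians of 0.13 to 0.54 among linked genes and 0.13 to 0.56 in the rest, and in 7 of the 9 anti-GFP comparisons. None of these gaps between linked genes and the rest was tested. The 2 sets were not matched for level. In SX1263 at F3, 85 of 315 tested linked genes had a mean under 10 CPM, against 1934 of 5616 in the rest. Without a fold minimum, the anti-GFP libraries gave differences of -3.53 to 2.19 percentage points.

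**Figure D1:**
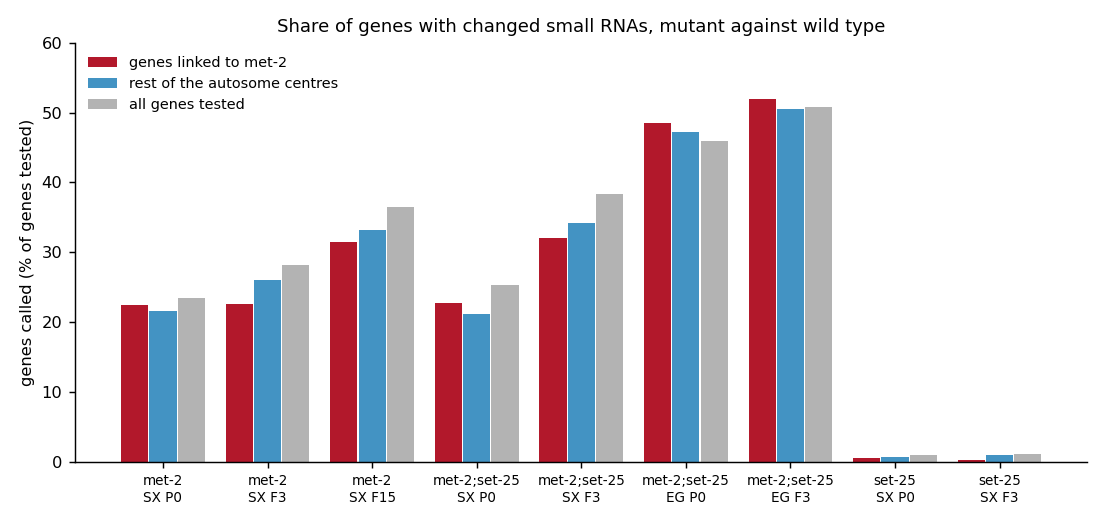
Percent of tested genes called (adjusted p under 0.05, vertical axis) in each control comparison with wild type, for genes linked to met-2, the rest of the autosome centres and all tested genes (bars). In each comparison the 3 bars stand close together: at F3 met-2 reached 22.5%, 26.1% and 28.1%, and EG6089 double mutants 51.9%, 50.6% and 50.9%.

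Within the region, the share of called genes did not climb toward met-2. In met-2 at F3, 18 of 91 genes within 0.25 Mb were called (19.8%), 16 of 95 between 0.25 and 0.5 Mb (16.8%) and 37 of 129 between 0.5 and 1 Mb (28.7%). The share was 19.5% between 1 and 2 Mb, 18.9% over the rest of the centre of chromosome III and 27.4% over the other autosome centres. At F15 the 3 distance classes had 26.1%, 31.9% and 34.9%, lowest nearest to met-2. The double mutant at F3 had 33.0%, 25.3% and 36.4% in SX1263, and 50%, 49.4% and 55.2% in EG6089.

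**Figure D2:**
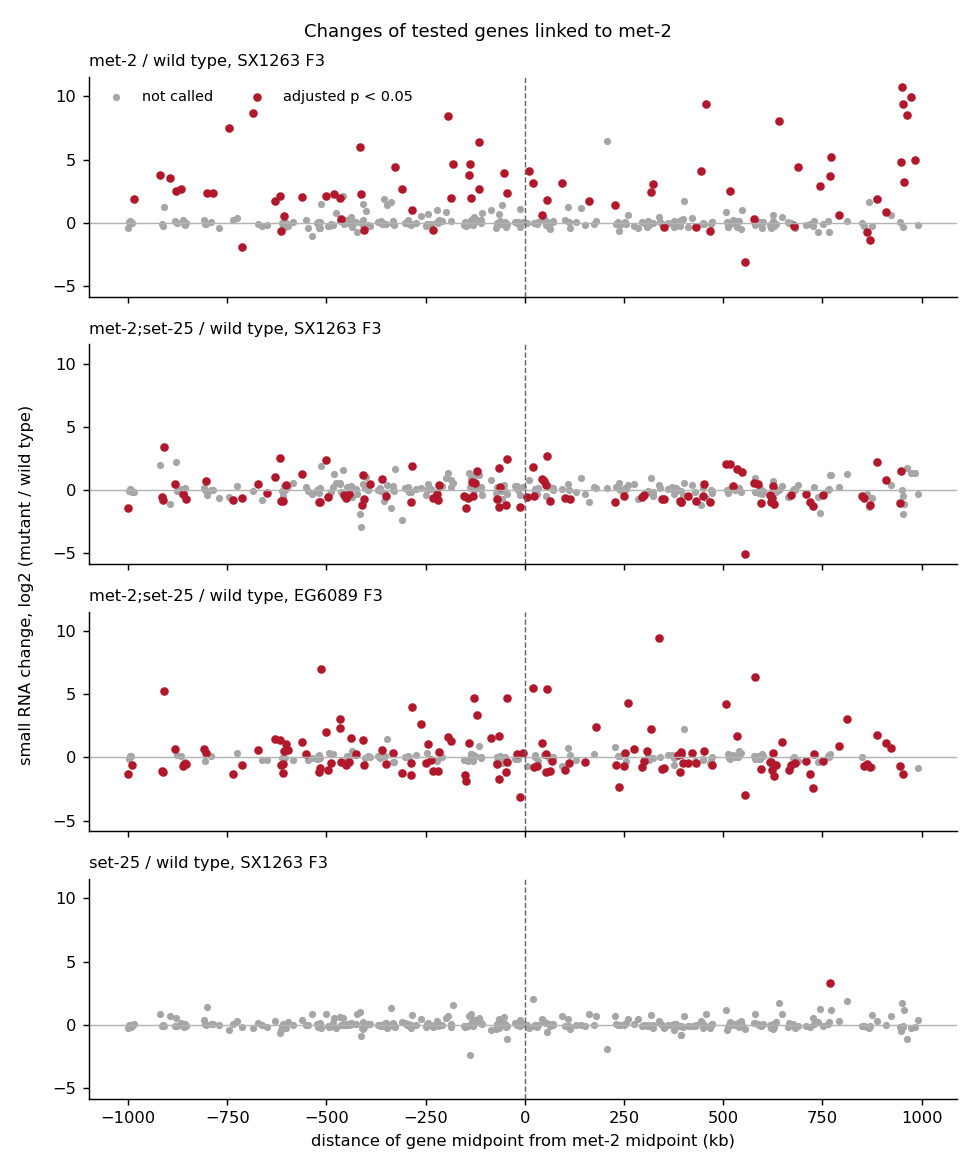
Log2 change over wild type (vertical axis) of each tested linked gene against its distance from met-2 in kb (horizontal axis), at F3 in control libraries of met-2, the SX1263 double mutant, the EG6089 double mutant and set-25. Called genes are marked, and they are spread over the whole 2 Mb in the first 3 panels, while set-25 has 1.

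Cut into bins of 1 Mb, the 2 bins beside met-2 were inside the range of the 40 other bins of the autosome centres in all 9 control comparisons. For met-2 at F3 they had 21.7% and 23.5% of genes called, against 16.9% to 45% (median 24.6%) in the other bins. For the EG6089 double mutant at F3 they had 51.1% and 52.8%, against 36.8% to 59.3% (median 52.3%).

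**Figure D3:**
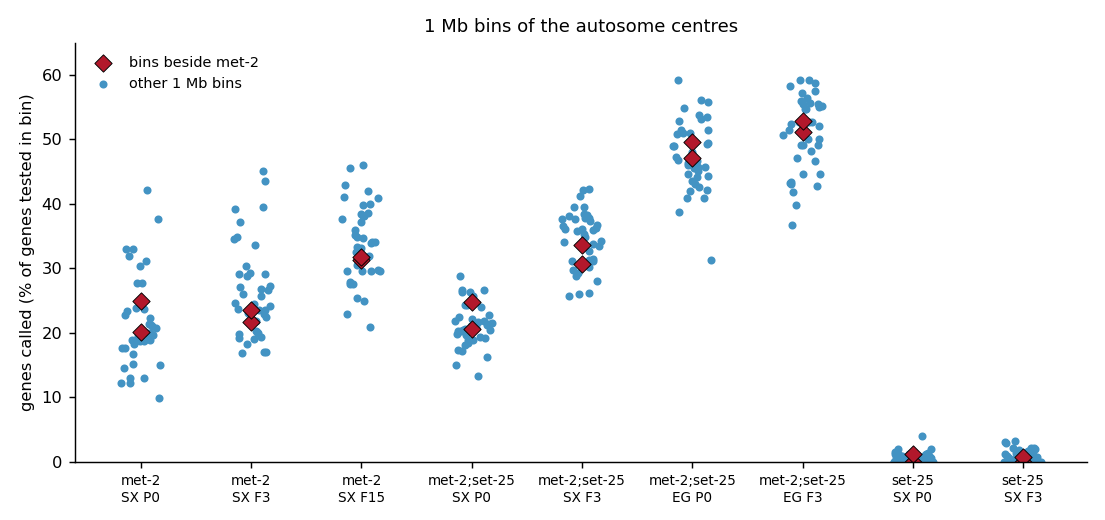
Percent of tested genes called in 1 Mb bins of the autosome centres, for each control comparison with wild type. Diamonds are the 2 bins beside met-2 and points the 40 other bins, and both diamonds lie inside the spread of the points in every comparison.

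Linked genes were also split by their mean level over all libraries of the same background and generation, mutant and anti-GFP libraries included. A gene low in wild type and high in a mutant can therefore stand in a higher class. Genes with few reads in wild type pass the read filter largely through mutants in which they are high, so a high share of rises in the lowest class follows from the filter, and it is set only against genes of the same class. In met-2 at F3, 36 of 85 linked genes with a mean under 10 CPM were called higher (42.4%), against 44.1% of such genes in the rest of the centres. Of those at 100 CPM or more, 3 of 66 were called higher (4.55%), against 6.85% in the rest. Between 10 and 100 CPM, 12.8% were called higher and 4.27% lower, against 10.9% and 4.22% in the rest. In the SX1263 double mutant at F3, 52 of 164 linked genes between 10 and 100 CPM were called lower (31.7%), against 29.2% in the rest and 19.7% of all tested genes. Fewer linked genes were called higher there than in the rest, 12.9% against 20.7% under 10 CPM and 6.71% against 10.5% between 10 and 100 CPM. In the EG6089 double mutant at F3, 28 of 70 linked genes at 100 CPM or more were called higher (40%), against 34.2% in the rest and 23.7% of all tested genes, while under 10 CPM it was 29.8%, against 36.5% in the rest. These differences were not tested.

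Most linked genes called at P0 or F3 were called again in another generation, while less of the met-2 list at F15 was shared with P0 or with F3. Of linked genes tested at both times, 68 were called in met-2 at P0 and 71 at F3, and 49 were called in the same direction at both, which is 72.1% of the P0 list and 69.0% of the F3 list. No linked gene was called in opposite directions. In the rest of the centres the same shares were 73.6% and 61.4%. Between F3 and F15, 44 linked genes were called alike in met-2, 68.8% of the F3 list and 47.3% of the F15 list, against 74.5% and 57.2% in the rest. Between P0 and F15 it was also 44, with 68.8% of the P0 list and 45.4% of the F15 list, against 69.1% and 41.9% in the rest. In the EG6089 double mutant 102 linked genes were called alike at P0 and F3, 81.6% of the P0 list and 76.7% of the F3 list, against 81.8% and 76.5% in the rest.

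The 20 tested genes closest to met-2, 10 on each side, reach from iglr-2 at 49.2 kb on the left to cec-1 at 49.4 kb on the right. In met-2, 4 of the 20 were called at F3, where 28.1% of all tested genes were, and all 4 were higher, namely ZC262.4, ZK353.2, ZK353.4 and sor-1. The call of sor-1 at F3 was lost without met-2 replicate 2 or wild-type replicate 1 or 2, with adjusted p of 0.065 to 0.11. The same 4 were called at P0, and at F15 3 were higher and 1 lower. In the SX1263 double mutant at F3, 4 were higher and 4 lower (38.3% of all tested genes were called), and in the EG6089 double mutant at F3, 5 were higher and 5 lower of 18 tested (50.9%). In set-25, sor-1 was called at P0 and none of the 20 at F3.

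The immediate neighbours showed little change in met-2. lmbr-1, which codes for an LMBR1-family membrane protein and lies 4.36 kb to the left, had 249, 228 and 237 CPM in met-2 at F3, against 239, 222 and 233 CPM in wild type. The groups overlapped, and the change was 0.04 ± 0.11 (SE). In double mutant controls, lmbr-1 was not called in SX1263 at P0 or F3. It was called in EG6089 at P0 and F3, where 45.9% and 50.9% of all tested genes were called. R05D3.12, 6.16 kb to the right, had 79.8, 72.1 and 85.1 CPM in met-2 and 55.4, 44.7 and 60.3 CPM in the double mutant, against 79.3, 81.4 and 81.4 CPM in wild type. It fell in the double mutant, with a change of -0.59 ± 0.11 (adjusted p = 0.00058), with no overlap between the groups. In EG6089 it had 8.46, 13.8 and 15.1 CPM in the double mutant, against 20.8, 19.8 and 19.1 CPM in wild type (-0.65 ± 0.30, adjusted p = 0.086). unc-116, the kinesin heavy chain gene at 24.9 kb, was not called in any control comparison.

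R05D3.3, 12.8 kb to the left, fell in the double mutant of both backgrounds. It had 1.61, 2.36 and 1.45 CPM in the EG6089 double mutant at F3, against 15.4, 14.4 and 15.5 CPM in wild type (-3.1 ± 0.28, adjusted p = 4.9e-07). In SX1263 it had 6.35, 6.59 and 9.63 CPM in the double mutant and 11.6, 15.5 and 20.4 CPM in met-2, against 16.3, 21.2 and 21.9 CPM in wild type. The double mutant lay below both other groups, with a change of -1.37 ± 0.33 against wild type (adjusted p = 0.0034) and -1.05 ± 0.33 against met-2 (adjusted p = 0.026). R05D3.3 shares exon bases with R05D3.9 on the opposite strand, so reads of the pair may be divided between them.

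On the right, ZK353.2 and ZK353.4 were higher in met-2, but not with the same evenness over libraries. ZK353.2, 20.9 kb away, had 45.4, 42.6 and 24.1 CPM in met-2 at F3, against 2.98, 4.24 and 5.21 CPM in wild type (3.18 ± 0.60, adjusted p = 0.00059). In the EG6089 double mutant it had 385, 343 and 399 CPM, against 6.86, 11.5 and 7.62 CPM in wild type (5.50 ± 0.24, adjusted p = 2.3e-09). At F15, however, met-2 libraries had 4.26, 101 and 2.87 CPM, against 3.1, 1.74 and 20.9 CPM in wild type, and the groups overlapped. ZK353.2 shares exon bases with lap-1 on the opposite strand. ZK353.4, 11 kb away, had 0.764, 1.40 and 19.2 CPM in met-2 at F3, against 0.373, 0.303 and 0.521 CPM in wild type (4.12 ± 1.03, adjusted p = 0.0052). That call rested on 1 library: without met-2 F3 control replicate 3 the change was 1.38, with an adjusted p of 0.24.

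Of 257 linked genes tested in all 5 control comparisons that share no library (met-2 at P0, F3 and F15, and the EG6089 double mutant at P0 and F3), 10 were called in the same direction in all 5, or 3.89%. The share was 5.05% in the rest of the autosome centres (210 of 4161) and 7.73% over all genes tested in the 5 (3.54% higher and 4.19% lower). Higher were B0303.7, K06H7.2, ZK1236.9, ZC262.4, pcp-1 and cdh-3, and lower were arrd-15, lido-18, mtx-2 and eef-1B.1. They lie between 713 kb to the left and 555 kb to the right of met-2. DESeq2 gave 9 such genes, 7 of them the same, and the compared libraries fitted alone gave 6, of which 5 were the same.

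arrd-15, which codes for an arrestin-domain protein (III:8930023-8936746), fell furthest of the 10 on the log2 scale in met-2 at F3 and F15 and in the double mutant of each background at F3. At F3 it had 42.2, 7.26 and 17.2 CPM in met-2, 4.44, 3.47 and 7.80 CPM in the SX1263 double mutant and 142, 164 and 128 CPM in set-25, against 198, 193 and 170 CPM in wild type. In EG6089 it had 14.5, 13.8 and 16.4 CPM in the double mutant, against 122, 123 and 117 CPM in wild type. Every library with the met-2 allele was below every wild-type and set-25 library. The change was -3.08 ± 0.46 in met-2 (adjusted p = 6.2e-05), -5.07 ± 0.53 in the SX1263 double mutant and -2.99 ± 0.15 in EG6089 (adjusted p = 1.7e-09). The double mutant was also lower than met-2 (-1.99 ± 0.51, adjusted p = 0.0077). At F15, met-2 libraries had 0.682, 2.56 and 1.62 CPM, against 119.1, 115 and 211 CPM in wild type (-6.53 ± 0.39), and the difference between generations was not tested.

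lido-18 (III:7662278-7667642) is the most abundant of the 10. It had 418, 478 and 483 CPM in met-2 at F3, 997, 965 and 1319 CPM in the SX1263 double mutant and 1466, 1400 and 1717 CPM in set-25, against 1615, 1854 and 1663 CPM in wild type. met-2 was lowest, the double mutant lay between met-2 and wild type, and set-25 overlapped wild type. The change was -1.90 ± 0.18 in met-2 (adjusted p = 3e-07), and the double mutant was higher than met-2 by 1.25 ± 0.18 (adjusted p = 5.2e-05). In EG6089 the double mutant had 712, 732 and 643 CPM, against 1092, 1115 and 1027 CPM in wild type (-0.63 ± 0.08). The EG6089 call at P0 was lost with size factors in place of TMM (-0.52, adjusted p = 0.12).

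mtx-2, which codes for metaxin of the mitochondrial outer membrane, and eef-1B.1, a translation elongation factor gene, fell by less than 2-fold in most comparisons. eef-1B.1 had 51, 52.5 and 51.6 CPM in met-2 at F3 and 48.4, 49.3 and 47.6 CPM in the SX1263 double mutant, against 77.7, 77.8 and 79.5 CPM in wild type. The groups did not overlap, and the gap to wild type was far wider than the spread within a group (-0.60 ± 0.17 in met-2, adjusted p = 0.012). In EG6089 it had 53.2, 50.7 and 51.1 CPM in the double mutant, against 76.0, 72.7 and 86.9 CPM in wild type. mtx-2 had 11.8, 12.4 and 13.3 CPM in met-2 at F3, against 19, 19.1 and 21.3 CPM in wild type (-0.66 ± 0.17, adjusted p = 0.0075). eef-1B.1 shares exon bases with F54H12.9 on the opposite strand.

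Among the genes that rose, ZK1236.9 (III:8432449-8435174, 55.7 kb from met-2) and K06H7.2 (III:8093573-8096311) reached levels above 100 CPM in EG6089. ZK1236.9 had 181, 182 and 113 CPM in the EG6089 double mutant at F3, against 3.97, 3.24 and 3.56 CPM in wild type (5.41 ± 0.30, adjusted p = 2.7e-08). In SX1263 it had 48.3, 64.3 and 62.9 CPM in met-2, 97.3, 76.0 and 152 CPM in the double mutant and 12.6, 9.51 and 11.2 CPM in set-25, against 8.20, 12.1 and 30 CPM in wild type. Both groups with the met-2 allele were above wild type without overlap (1.82 ± 0.58 in met-2, adjusted p = 0.025), and set-25 was among the wild-type values. At F15, met-2 replicate 1 had 3.24 CPM and the others 67.7 and 93.1 CPM, against 4.84, 5.50 and 3.25 CPM in wild type, so the groups overlapped although the gene was called (adjusted p = 0.025). K06H7.2 had 155, 139 and 135 CPM in the EG6089 double mutant, against 9.75, 7.2 and 9.40 CPM in wild type. In SX1263 it had 19.4, 16.9 and 23.5 CPM in met-2 and 12, 18 and 20.2 CPM in set-25, against 10.1, 10.3 and 9.20 CPM in wild type. The met-2 change at F3 was 1.01 ± 0.36 (adjusted p = 0.040), and set-25 (0.76 ± 0.36, adjusted p = 0.54) was not called.

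B0303.7 (III:8693622-8699521) was called in met-2 and not in the SX1263 double mutant at F3. It had 176, 287 and 356 CPM in met-2 at F3, 85.6, 59.7 and 157 CPM in the double mutant and 71.5, 113 and 78.6 CPM in set-25, against 44.9, 53.3 and 56.8 CPM in wild type. All 3 mutant groups lay above wild type, but only met-2 was called (2.41 ± 0.64, adjusted p = 0.0081), and the direct contrast of double mutant with met-2 missed the threshold (-1.43 ± 0.61, adjusted p = 0.097). In EG6089 the double mutant had 751, 485 and 450 CPM, against 107, 118 and 125 CPM in wild type (2.27 ± 0.22, adjusted p = 3.5e-06). B0303.7 shares exon bases with sdz-1 on the opposite strand.

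The other genes that rose had low levels at F3. cdh-3, a cadherin gene, had 12.2, 12.8 and 13.5 CPM in met-2 at F3 and 8.41, 7.98 and 8.41 CPM in the double mutant, against 4.23, 2.57 and 5.03 CPM in wild type. Both mutants were above wild type without overlap, met-2 by 1.70 ± 0.23 (adjusted p = 2.1e-05). pcp-1, a prolyl carboxypeptidase-like gene, had 9.47, 4.33 and 3.15 CPM in met-2, against 1.12, 1.51 and 1.21 CPM in wild type, and ZC262.4 had 1.99, 2.37 and 2.33 CPM, against 0.622, 0.454 and 0.174 CPM. ZC262.4 shares exon bases with ZC262.2 on the opposite strand. K06H7.2 and ZC262.4 in met-2 at F3 lost their calls when any 1 of the 6 libraries was left out, with adjusted p of 0.052 to 0.14 and 0.051 to 0.13. ZK1236.9 in met-2 at F3 lost its call without met-2 replicate 2 or 3 or wild-type replicate 1 or 2, with adjusted p of 0.057 to 0.12. Its F15 call was lost with no filter (0.053), with a replicate block (0.054) and with the compared libraries alone (0.078). It was also lost without any 1 of 5 of the 6 libraries (0.056 to 0.085). With the compared libraries alone, mtx-2 lost its calls in met-2 at P0 (0.21) and F15 (0.10), pcp-1 in met-2 at P0 (0.067) and lido-18 in EG6089 at P0 (0.07), and each of these 3 genes also lost calls without single libraries. DESeq2 did not call mtx-2 (0.057) or pcp-1 (0.078) in the EG6089 double mutant at F3. K06H7.2 in met-2 at P0 lost its call without met-2 replicate 3 (0.05). arrd-15, B0303.7, cdh-3 and eef-1B.1 kept their calls in each of the 5 comparisons under every alternative fit tried for single genes.

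**Figure D4:**
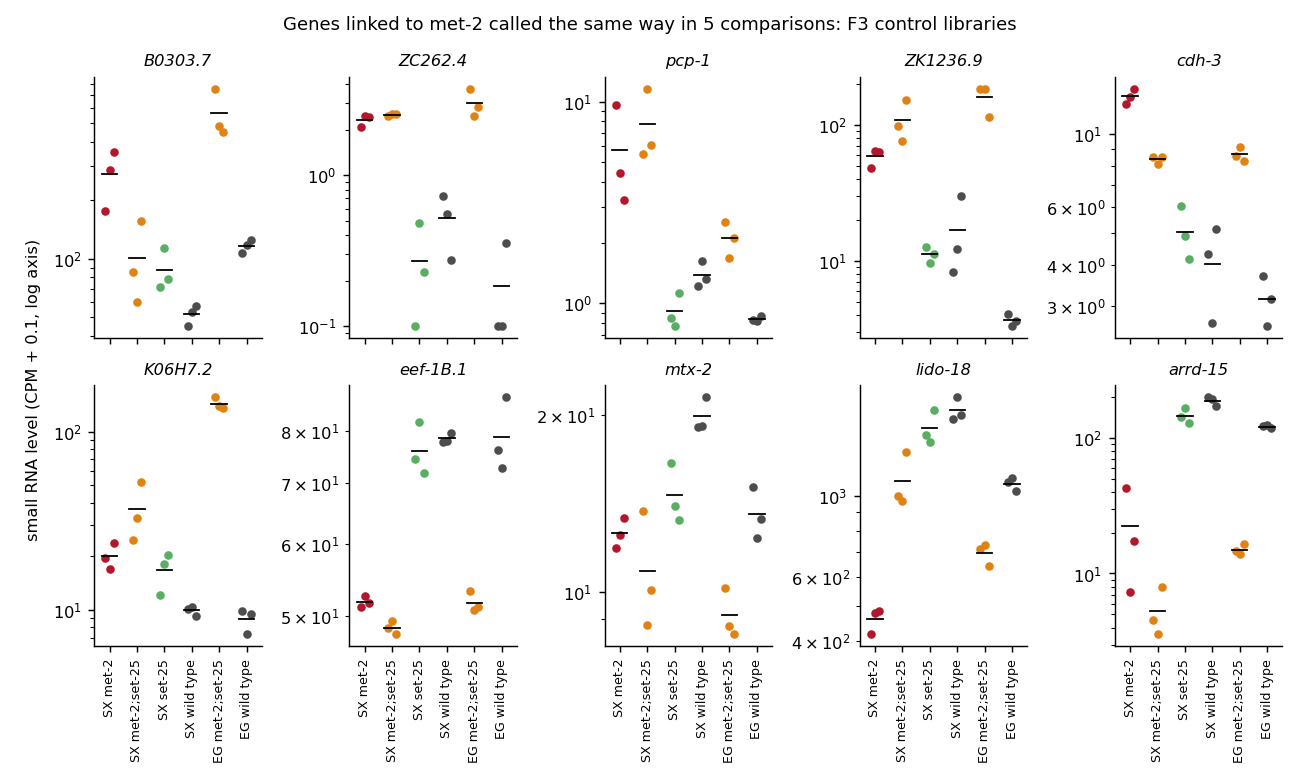
Level of the 10 linked genes called the same way in 5 comparisons, in each F3 control library (CPM plus 0.1, log axis), for met-2, double mutant, set-25 and wild type in SX1263 and double mutant and wild type in EG6089; points are libraries and lines are group means. Mutants with the met-2 allele stand above wild type for 6 genes and below it for 4, from single CPM values for arrd-15 in the SX1263 double mutant to small steps for eef-1B.1.

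The largest rises of linked genes in met-2 were of another kind: genes with next to no small RNA in wild type, set-25 or the double mutant, and at least 24 CPM in met-2. The 8 largest called rises at F3 were C40H1.3, ttr-5, chtb-1, emb-9, F44E2.4, C18H2.5, spc-2 and fbn-1, which passed the read filter through the mutant libraries. C40H1.3 (III:9327307-9329366) had 33.5, 24.1 and 30.8 CPM in met-2, against 0 in all 3 wild-type and all 3 double mutant libraries. With 3 counts over the wild-type group as the floor, met-2 was at least 200-fold higher than wild type.

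Members of this group code for secreted and matrix proteins as well as for proteins of unknown role. emb-9, a type IV collagen chain of basement membranes, had 123, 59.7 and 47.3 CPM in met-2, 0.476, 1.04 and 0.731 CPM in the double mutant and 0, 0.0960 and 0.128 CPM in set-25, against 0.249, 0.303 and 0 CPM in wild type. fbn-1, a fibrillin homologue, had 137, 61.1 and 109 CPM in met-2 and 0.476, 1.04 and 0 CPM in the double mutant, against 0.373, 0.303 and 1.04 CPM in wild type. All met-2 libraries were far above all others. The fitted changes in met-2 were 8.5 ± 0.66 for emb-9 (adjusted p = 3.7e-08) and 7.51 ± 0.57 for fbn-1 (adjusted p = 2.5e-08), sizes that depend on wild-type counts of a few reads.

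ttr-5, a transthyretin-related gene, had 55.2, 35.9 and 43.9 CPM in met-2, against 0.124, 0 and 0 CPM in wild type. chtb-1 had 242, 63.6 and 182 CPM in met-2, against 0, 0.151 and 0.347 CPM in wild type. spc-2 had 380, 193 and 153 CPM in met-2 and 1.75, 0.694 and 2.32 CPM in the double mutant, against 0.622, 0.303 and 1.21 CPM in wild type. In all 3 genes the double mutant stayed near wild type, and the fit of double mutant against met-2 gave calls for all 8 genes at F3, with changes from -6.75 for emb-9 to -11.34 for ttr-5. The 8 genes were picked for high values in these same met-2 libraries, so those calls and sizes follow in part from the choice. In EG6089, where met-2 alone was not sequenced, the double mutant had 0 to 0.403 CPM of chtb-1 and 2.36 to 5.23 CPM of spc-2, against 0 to 0.254 CPM and 0.360 to 2.03 CPM in wild type.

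**Figure D5:**
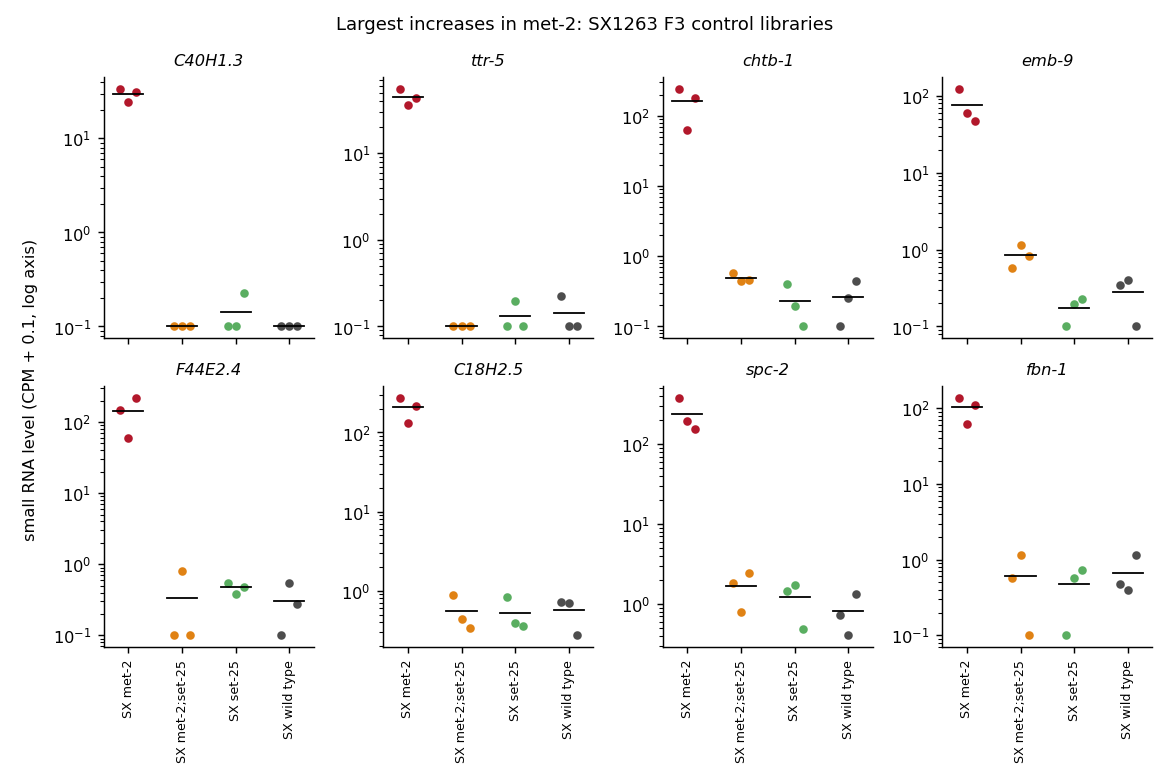
Level of the 8 linked genes with the largest rise in met-2 at F3, in each SX1263 control library (CPM plus 0.1, log axis; lines are group means). The 3 met-2 libraries lie between 24.1 CPM (C40H1.3) and 380 CPM (spc-2), and the double mutant, set-25 and wild-type libraries all lie below 3 CPM.

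At F15, 7 of the 8 had 0.197 CPM (emb-9) to 14.7 CPM (spc-2) in met-2 libraries. chtb-1 had 0.853, 0.394 and 2.16 CPM at F15, against 0, 0.289 and 0.112 CPM in wild type, and emb-9 had 4.43, 0.197 and 5.57 CPM, against 0.194, 0 and 0.224 CPM. C18H2.5 had 11.8, 4.92 and 8.09 CPM, against 0.194, 0.723 and 0.785 CPM in wild type. fbn-1 had 7.85, 6.30 and 10.2 CPM, against 0.194, 0.578 and 0 CPM in wild type, and was called (4.95 ± 0.83, adjusted p = 0.0012). F44E2.4 (III:8832480-8838424) was higher, with 42.5, 108 and 76.5 CPM in met-2 at F15, against 0.194, 0.289 and 0 CPM in wild type, and 145, 59.6 and 218 CPM in met-2 at F3, against 0, 0.454 and 0.174 CPM. The difference between generations was not tested.

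Several of these genes are neighbours at the right end of the region, a pattern chosen after the values were seen. Between 940 and 1000 kb from met-2, 10 genes were tested and 7 were called higher in met-2 at F3, where 17.9% of all tested genes were called higher: C40H1.7, C40H1.3, ttr-5, elo-4, emb-9, chtb-1 and K04H4.5. All 7 were called lower in the double mutant than in met-2. These 7 were picked for high values in the same met-2 libraries, so those calls follow in part from the choice. In the next 60 kb, outside the region, 1 of 7 tested genes was called higher in met-2, namely C38C10.3. In the double mutant against wild type at F3, C40H1.7 was called higher and cpb-1 lower among the 10.

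Markers of other tissues differed between the groups in the same libraries. Summed small RNA of 16 intestinal marker genes was 376 to 474 CPM in met-2 at F3, 222 to 293 CPM in the double mutant and 34.8 to 65.7 CPM in set-25, against 64.6 to 73.4 CPM in wild type, with 1 marker at 0 in all wild-type libraries. For 17 body muscle markers the sums were 535 to 822 CPM in met-2, 236 to 262 CPM in the double mutant and 270 to 309 CPM in set-25, against 327 to 362 CPM in wild type, with 1, 0, 1 and 4 markers at 0 in that order of groups. For 75 sperm genes they were 726 to 924 CPM, 479 to 558 CPM and 379 to 450 CPM, against 385 to 432 CPM in wild type. For 24 neuronal markers they were 650 to 808 CPM, 738 to 931 CPM and 592 to 760 CPM, against 306 to 429 CPM in wild type. The sums of 22 oocyte and germline genes were 3620 to 3776 CPM in met-2, 3595 to 4624 CPM in the double mutant and 3603 to 3869 CPM in set-25, against 3810 to 4036 CPM in wild type. Among these SX1263 F3 groups, the intestinal, muscle and sperm sums were highest in met-2. The neuronal sums were higher in all 3 mutants than in wild type, and the germline sums were lower in met-2 than in wild type. A sum can follow a few abundant genes. Of 20 neuronal markers tested, 10 were called higher in met-2, 4 in the double mutant and 3 in set-25, with 0, 1 and 0 lower. Of all tested genes, 17.9%, 18.6% and 0.498% were higher, and 10.3%, 19.7% and 0.612% lower. In met-2, 7 of 14 tested intestinal markers, 6 of 13 muscle and 21 of 36 sperm genes were called higher, with 0, 0 and 1 lower. At F15 the met-2 sums were 125 to 161 CPM for intestine, 734 to 1189 CPM for sperm and 603 to 1067 CPM for neurons, against 31.2 to 41.3, 378 to 602 and 318 to 424 CPM in wild type, while muscle sums overlapped (347 to 475 CPM in met-2, against 363 to 385 CPM in wild type). In EG6089 at F3, muscle sums were lower in the double mutant than in wild type (559 to 610 CPM, against 791 to 918 CPM). The intestinal, sperm, neuronal and germline sums were higher in that double mutant than in its wild type. The part of these shifts in the rises of linked genes was not tested.

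Linked genes on the marker lists were few. pat-2, a muscle integrin gene, had 18.2, 6.28 and 77.8 CPM in met-2 at F3 and 1.11, 0 and 1.1 CPM in the double mutant, against 2.11, 2.27 and 1.56 CPM in wild type (4.09 ± 0.67 in met-2, adjusted p = 0.00016). At F15 it had 173, 131 and 71.0 CPM in met-2, against 1.74, 1.3 and 1.12 CPM in wild type. The met-2 libraries were above wild type at both times. The neuronal marker unc-36, a calcium channel subunit gene, rose in met-2 at P0 (4.33, adjusted p = 0.0001) and F3 (4.62, adjusted p = 8.6e-06), while its change was 0.60 at F15 (adjusted p = 0.32) and 0.54 in the double mutant at F3 (adjusted p = 0.53). glr-1, a glutamate receptor gene of neurons, was called higher in met-2 at P0 (7.17, adjusted p = 0.015) and not at F3 (6.49, adjusted p = 0.11). The germline marker glp-1 was not called in met-2 at any of the 3 times. pat-2 and glp-1, like lin-13 and fbn-1, share exon bases with another gene.

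Both Notch receptors of the worm lie in the region, and they moved differently. lin-12, which acts in somatic cell fate choices, had 25.06, 119.2 and 46.1 CPM in met-2 at F3 and 5.08, 1.39 and 4.51 CPM in the double mutant, against 1.74, 3.33 and 3.82 CPM in wild type. It rose in met-2 without overlap (4.44 ± 0.60, adjusted p = 2.6e-05), and the double mutant was lower than met-2 (-4.01 ± 0.59, adjusted p = 9.4e-05). glp-1, the receptor that keeps germline stem cells dividing, had 214, 217 and 240 CPM in met-2 and 138, 84.6 and 146 CPM in the double mutant, against 232, 247 and 231 CPM in wild type. It fell in the double mutant (-0.94 ± 0.19, adjusted p = 0.00068) and in EG6089 (-1.31 ± 0.10, adjusted p = 7.3e-08). Over the whole Notch list of 21 genes, 20 were tested in met-2 at F3, where 2 were higher and 1 lower. In the EG6089 double mutant at F3, 1 of 20 tested was higher and 10 were lower. Among all tested genes, 17.9% were higher and 10.3% lower in met-2, and 23.7% and 27.1% in the EG6089 double mutant.

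Genes of the small RNA pathway in the region are dcr-1, which codes for Dicer, and henn-1, a methyltransferase that protects small RNA ends. dcr-1 had a mean of 164 CPM in met-2, 185 CPM in the SX1263 double mutant and 176 CPM in set-25 at F3, against 162 CPM in wild type, and was not called in any control comparison. henn-1 had 48.4, 26.7 and 35.9 CPM in the double mutant at F3, against 56.2, 54.8 and 59.0 CPM in wild type (-0.60 ± 0.15, adjusted p = 0.0035). All double mutant libraries were lower. In the EG6089 double mutant, henn-1 was called lower at P0 and was not called at F3. henn-1 shares exon bases with fbxl-1, an F-box gene that also fell in the SX1263 double mutant at F3.

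Of 6 chromatin and synMuv genes in the region (cec-1, gei-8, lin-13, lin-36, lin-9 and zfp-1), none was called in met-2 at F3 and 4 were higher in the double mutant of each background, with none lower. Over the whole list, 17 of 76 tested genes were higher and 13 lower in the SX1263 double mutant at F3, against 18.6% higher and 19.7% lower among all tested genes. In the EG6089 double mutant at F3, 13 of 75 were higher and 20 lower, against 23.7% higher and 27.1% lower among all tested genes. lin-13, a zinc finger gene that acts against vulval fates, had 784, 921 and 821 CPM in the SX1263 double mutant and 617, 511 and 581 CPM in met-2, against 589, 619 and 614 CPM in wild type. set-25 had 708, 671 and 673 CPM, and of the 3 mutants only the double mutant was called (0.47 ± 0.10, adjusted p = 0.0016). In EG6089 it had 1043, 1056 and 1030 CPM in the double mutant, against 704, 690 and 637 CPM in wild type (0.62 ± 0.08). lin-36, another synMuv gene, had 543, 921 and 789 CPM in the SX1263 double mutant, against 370, 443 and 414 CPM in wild type (0.88 ± 0.18, adjusted p = 0.00092), and 305, 338 and 250 CPM in the EG6089 double mutant, against 213, 203 and 173 CPM in wild type (0.60 ± 0.12).

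Of 8 Hox and homeodomain genes in the region, 3 had enough reads to be tested in SX1263 at F3. egl-5, the posterior Hox gene, had 7.18, 3.91 and 4.92 CPM in met-2 and 2.70, 2.08 and 4.14 CPM in the double mutant, against 1.99, 0.908 and 0.868 CPM in wild type. It was called higher in both (2.04 ± 0.42 in met-2, adjusted p = 0.0011). pros-1, the Prospero homologue, was called in met-2 (2.68 ± 0.88, adjusted p = 0.029), but without met-2 replicate 3 the change was 0.73 with an adjusted p of 0.55. It shares exon bases with K12H4.10 on the opposite strand. mab-5 was not called in met-2. Of 3 collagen genes 2 were tested, emb-9 and col-91, and both were higher in met-2. Over the whole genome, 47 of 176 collagen genes were tested there, and 29 were higher and 2 lower. Of all tested genes, 17.9% were higher and 10.3% lower. Genes with few reads in the other groups can pass the read filter through met-2 libraries in which they are high. The call of col-91 was lost without met-2 replicate 2 (3.50, adjusted p = 0.058).

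Comparing the double mutant with met-2 directly, 99 of 315 linked genes were called at F3 (31.4%), 16 higher and 83 lower, against 27.6% of the rest of the autosome centres and 24.8% of all tested genes (9.24% higher and 15.6% lower). At P0, 73 of 334 were called (21.9%), 13 higher and 60 lower, against 18.8% of the rest and 16.6% of all tested genes (6.31% higher and 10.3% lower). With the compared libraries fitted alone these counts were 35 at F3 and 28 at P0. In the fit of all libraries, falls also outnumbered rises in the rest of the centres. At F3, 6.96% were higher there and 20.7% lower, against 5.08% and 26.3% of linked genes. At P0 it was 3.96% and 14.8%, against 3.89% and 17.96% of linked genes. Between met-2 and set-25, 60 linked genes were called at F3 and 56 at P0, where 25% and 20.2% of all tested genes were called, and 35 at P0 with the compared libraries alone. Same-numbered libraries deviated together in both P0 comparisons, and with the replicate number as a block 135 linked genes were called between double mutant and met-2 and 90 between met-2 and set-25.

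A group of linked genes fell in the double mutant of both backgrounds and was not called in met-2 at F3. fbxl-1 had 21.7, 17.7 and 35.5 CPM in the SX1263 double mutant at F3 and 55.8, 55.1 and 66.3 CPM in met-2, against 68.0, 71.6 and 68.0 CPM in wild type. In EG6089 it had 12.9, 6.29 and 8.91 CPM in the double mutant, against 34.1, 35.6 and 30.2 CPM in wild type. Double mutants lay below wild type in both, with changes of -1.44 ± 0.27 (adjusted p = 0.0004) and -1.84 ± 0.23 (adjusted p = 1.6e-05). F10E9.3, 66.3 kb to the left of met-2, had 12.7, 12.1 and 19.1 CPM in the SX1263 double mutant and 32.8, 33.5 and 38.7 CPM in met-2, against 35.4, 38.7 and 39.7 CPM in wild type (-1.35 ± 0.19, adjusted p = 3.5e-05). T20B12.7, at the left edge of the region, had 19.5, 15.3 and 20.2 CPM in the SX1263 double mutant, against 47, 49.6 and 54.5 CPM in wild type (-1.44 ± 0.22), and 18.1, 17.3 and 19.3 CPM in the EG6089 double mutant, against 47.5, 43.2 and 42.7 CPM in wild type (-1.28 ± 0.15). idi-1, which codes for isopentenyl-diphosphate isomerase, changed by -0.92 ± 0.29 in SX1263 (adjusted p = 0.018) and -1.39 ± 0.21 in EG6089.

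The EG6089 double mutant had large rises of linked genes that were not called in the SX1263 double mutant. B0303.14 (III:8713993-8716184) had 1864, 1174 and 1543 CPM in the EG6089 double mutant at F3, against 2.89, 1.44 and 1.52 CPM in wild type (9.48 ± 0.27, adjusted p = 6.7e-12). In SX1263 it had 2.38, 1.39 and 4.02 CPM in the double mutant, against 1.99, 1.21 and 2.95 CPM in wild type, and the groups overlapped. ZK643.6 had 753, 536 and 646 CPM in the EG6089 double mutant, against 7.04, 9.36 and 7.88 CPM in wild type, and 4.76, 0.694 and 26 CPM in the SX1263 double mutant, against 5.1, 5.30 and 7.12 CPM in wild type. ZK643.6 shares exon bases with ZK643.2 on the opposite strand. slc-17.3, a solute carrier gene, had 178, 113 and 208 CPM in the EG6089 double mutant, against 0.722, 1.08 and 2.29 CPM in wild type (6.96 ± 0.34), and 3.65, 5.20 and 5.61 CPM in the SX1263 double mutant, against 0.870, 1.36 and 1.74 CPM in wild type. SX1263 and EG6089 were fitted separately, so the difference between backgrounds was not tested.

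H14A12.5 rose in the double mutant of both. It had 158, 144 and 238 CPM in the SX1263 double mutant at F3 and 12.8, 74.5 and 29.4 CPM in met-2, against 16.9, 12 and 21.2 CPM in wild type (3.44 ± 0.60 in the double mutant, adjusted p = 0.00026). In EG6089 it had 253, 244 and 179 CPM in the double mutant, against 5.24, 7.56 and 5.08 CPM in wild type (5.27 ± 0.38). At F15, 2 of 3 met-2 libraries were high, with 3.75, 246 and 489 CPM in met-2, against 6.97, 8.10 and 9.53 CPM in wild type. H14A12.5 shares exon bases with fum-1 on the opposite strand.

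The 3 calls in set-25 control libraries were sor-1 and cls-3 at P0 and ZK512.8 at F3. cls-3, a CLASP microtubule gene 811 kb from met-2, had 48.6, 38.4 and 51.9 CPM in set-25 at P0, 21.2, 21.5 and 36.3 CPM in the double mutant and 8.85, 10.7 and 9.33 CPM in met-2, against 8.74, 12.1 and 10.4 CPM in wild type. set-25 was highest (2.15 ± 0.31, adjusted p = 0.0011), the double mutant lay between (1.34 ± 0.31, adjusted p = 0.0036), and met-2 overlapped wild type and was lower than set-25 (-2.27 ± 0.31, adjusted p = 3.7e-05). At F3 set-25 had 60.2, 21.4 and 55.5 CPM of cls-3, against 11.8, 12.7 and 12.1 CPM in wild type (1.90 ± 0.50, adjusted p = 0.081). The EG6089 double mutant had 81.3, 111 and 83.3 CPM at F3, against 13.2, 13 and 6.86 CPM in wild type (3.05 ± 0.25).

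ZK512.8 rose in set-25 and in met-2 alike at F3. It had 45, 35.1 and 27.4 CPM in set-25, 21.1, 64.6 and 55.8 CPM in met-2 and 9.68, 7.28 and 7.80 CPM in the double mutant, against 2.11, 1.97 and 6.94 CPM in wild type. The change was 3.31 ± 0.54 in set-25 (adjusted p = 0.003) and 3.71 ± 0.54 in met-2 (adjusted p = 5.6e-05), and the double mutant was lower than met-2 (-2.5 ± 0.51, adjusted p = 0.0016). ZK512.8 shares exon bases with nhl-1 on the opposite strand. sor-1, a Polycomb-like regulator of Hox genes 42.3 kb from met-2, had 33.9, 32.4 and 33.2 CPM in set-25 at P0, 30.3, 38.7 and 37.9 CPM in met-2 and 43.9, 63.3 and 46.8 CPM in the double mutant, against 22, 20.1 and 23.1 CPM in wild type. The set-25 call (0.61 ± 0.14, adjusted p = 0.041) was lost when any 1 of the 6 libraries was left out, with adjusted p of 0.10 to 0.23, and in 3 of the other fits, with adjusted p of 0.050 to 0.12.

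Feeding of dsRNA against GFP left linked genes close to their controls. In 14 comparisons of anti-GFP with control libraries of the same genotype, background and generation, 1 linked gene was called, R107.2, higher in the SX1263 double mutant at F3, where 0.0962% of all tested genes were called. In the other 13 comparisons 0 to 0.131% of all tested genes were called, with 0.0937% in met-2 at F15, 0.0224% in the EG6089 double mutant at F3, 0.0079% in each of the 4 SX1263 P0 groups, 0.00874% in SX1263 wild type at F3, 0.011% in both EG6089 P0 groups and 0.0112% in EG6089 wild type at F3. Unadjusted p was under 0.05 for 0 to 25 linked genes per comparison, and DESeq2 called 10 over the 14. In anti-GFP libraries, 57 linked genes were called in met-2 at P0, 70 at F3 and 76 at F15, where 19.2%, 28.6% and 30.1% of all tested genes were called. The double mutant had 57 and 87 in SX1263 at P0 and F3 (21.8% and 32.8% of all tested genes) and 133 and 132 in EG6089 (48.6% and 50.3%). The set-25 mutant had 1 at each time (0.806% and 0.962% of all tested genes). The wild-type P0 anti-GFP group held 2 libraries, so leaving out either left 1, which was assumed to vary like the other groups. The met-2 count at P0 was 23 without wild-type P0 anti-GFP replicate 1 and 28 without replicate 3, and the double mutant count was 27 without wild-type replicate 1. The F15 count was 42 without wild-type F15 anti-GFP replicate 1 and 44 without replicate 2.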

How the data were processed

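Each library's deposited file lists unnormalized read counts by gene. Per the submitters' processing notes, cutadapt, FastQC, Bowtie2, HTSeq and DESeq2 were used, without versions, with the builds WBcel235 and ce11. Libraries were made from TRIZOL RNA with 1 of 2 small RNA kits, and the sources used here do not give which library had which. HTSeq's counter rows entered neither library sizes nor tests. They made up 50.8 to 62.0% of SX1263 records, and 29.2 to 42.4% for EG6089. Rows were matched to the Ensembl 115 annotation of WBcel235, and 290 and 491 rows without a match (0.737% and 0.905% of counts) were kept in the fits.

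A single fit per strain and generation held all its libraries (edgeR 4.0.16, R 4.3.3, limma 3.58.1). It used filterByExpr (count threshold 10, total threshold 15), TMM scaling, robust quasi-likelihood F tests, and Benjamini-Hochberg adjustment over all tested genes. The script was tested on simulated data. The floor of 3 counts in a library lay at 0.165 to 0.837 CPM for SX1263 libraries, and at 0.492 to 1.41 CPM for those of EG6089. These floors were taken over all assigned reads, without the TMM factor. CPM was computed from the deposited counts. Autosome centres hold genes with midpoints between 25 and 75% of the last annotated gene end. Named genes were set by position (10 nearest on each side), by calls shared in 5 comparisons, by size of change, by abundance and by gene lists. Genes and lists were chosen with earlier results of these data known. The labels do not say whether replicates were separate cultures, so p-values measure the spread between these libraries, which may be technical. Same-numbered libraries were taken as paired where all 3 pairs had correlated deviations over 0.1: the SX1263 double mutant (0.28 to 0.55) and set-25 (0.30 to 0.69) with wild type in P0 controls, the double mutant (0.22 to 0.59) and set-25 (0.10 to 0.54) with met-2 there, and set-25 with wild type in F3 anti-GFP libraries (0.15 to 0.35). SX1263 P0 anti-GFP comparisons with wild type had only 2 pairs each and so were not taken as paired. Their correlations were 0.24 to 0.46 for met-2, 0.31 to 0.61 for the double mutant and 0.52 to 0.70 for set-25. Alternatives were size factors, no filter, a replicate block, DESeq2 1.42.0, compared libraries alone, a 2-fold minimum, other windows and leaving out each library. A genome sequence was not used here.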

Additional observations from a re-analysis of the deposited data

Results flagged for a closer look

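In 2 of 369 pairs of comparisons examined over 96 named genes, every mutant library was on one side of wild type in one comparison and on the other side in the other. R05D3.12 changed by -0.21 in met-2 at P0 and by 0.13 in met-2 at F15. anmt-1 changed by -0.11 in the SX1263 double mutant at P0 and by 0.53 in the EG6089 double mutant at F3, and it shares exon bases with hadb-1 on the opposite strand. The difference between the comparisons was not tested in either case, and no group was large enough to be examined for outlying libraries.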

How the results depend on the processing

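With a replicate block, 121 linked genes were called in met-2 and 129 in the double mutant in SX1263 P0 controls (105 and 117 in anti-GFP libraries), 2 in set-25 at F3, 90 between met-2 and set-25 at P0, 135 between double mutant and met-2 at P0, and 2 between anti-GFP and control libraries. With the compared libraries fitted alone, the counts were 42 in met-2 and 50 in the double mutant at P0 (30 and 15 in anti-GFP libraries), 0 in set-25 P0 anti-GFP, 8 in set-25 at F3 for each treatment, 64 in met-2 at F15, 35 between met-2 and set-25 at P0, 28 and 35 between double mutant and met-2 at P0 and F3, 6 shared by 5 comparisons, and 0 between anti-GFP and control. With a 2-fold minimum the double mutant had 27 at P0, 30 at F3, and 73 and 62 in EG6089 (21, 32, 69 and 54 in anti-GFP libraries), set-25 had 1 at P0, and double mutant against met-2 had 40 and 54. Small counts also moved with size factors (set-25 P0 1), with no filter (set-25 P0 1, set-25 F3 anti-GFP 0, anti-GFP against control 4) and with DESeq2 (set-25 F3 4, its anti-GFP libraries 2, anti-GFP against control 10). In set-25, a 0.5 Mb window gave 0% for P0 anti-GFP and both F3 comparisons, a 2 Mb window 0.599% for both F3 comparisons, and all autosomal genes as the comparison 0.984% at P0 and 0.806% in P0 anti-GFP. The causes were not tested. The linked genes' share minus that of the rest was -4.75 to 3.45 percentage points over the control comparisons in the fits with TMM, size factors, a replicate block, DESeq2 and the compared libraries alone, -0.23 to 6.37 with no filter, and -6.41 to -0.24 with a 2-fold minimum.

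Leaving out each library gave 51 to 73 calls in met-2 P0, 47 to 75 in double mutant P0, 1 to 2 in set-25 P0, 51 to 69 in met-2 F3, 84 to 112 in double mutant F3, 1 to 2 in set-25 F3, 63 to 88 in met-2 F15, and 103 to 125 and 114 to 133 in EG6089 P0 and F3. In anti-GFP libraries the ranges were 23 to 52, 27 to 48, 0 to 1, 49 to 64, 62 to 92, 0 to 1, and 42 to 65 in the same order up to F15, and in EG6089 the counts stayed within 1.5 times of the full ones. Ranges were 42 to 56 and 46 to 62 for met-2 against set-25, 49 to 72 and 71 to 100 for double mutant against met-2 (P0, F3), and 7 to 11 for genes shared by 5 comparisons. Over named genes, 117 calls were lost, 4 gained and 0 reversed. Genes under the floor of 3 counts were limited by depth.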
